A study of Homo sapiens with 6 samples.

Results

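The genes described here are the core of transforming growth factor beta (TGF-beta) signalling as cells produce, store and sense it: the ligand genes TGFB1, TGFB2 and TGFB3, the receptor genes TGFBR1, TGFBR2 and TGFBR3, the latent TGF-beta binding protein genes LTBP1, LTBP2 and LTBP3, and TGFBI, a gene named for its induction by TGF-beta. They were chosen by gene symbol and make up 10 of the 17039 genes in the deposited expression table. The study sequenced the mRNA of the cell lines 231-BR and MDA-MB-231, with 3 libraries of each line, to find genes that differ between a brain-metastasizing breast cancer line and the line it came from. MDA-MB-231 is a human triple-negative breast cancer cell line, bought from a cell bank and grown in DMEM with fetal bovine serum and antibiotics. 231-BR is its brain-seeking variant, received as a gift and grown in the same medium with the selection drug G418 added. No other treatment is named for either line, and the difference in cell line and the difference in medium cannot be told apart. The libraries were grouped by title, since the number within the cell line label goes up by 1 with each replicate, which was read as an error of entry. The replicates are described as parallel and independent samples, but not as separate cultures, so p-values measure only the spread between these libraries, which may be technical.

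The markers of the labelled cell type were present. All 5 genes listed as markers of breast carcinoma epithelium had a mean of at least 1 FPKM over the 6 libraries, and their summed level was 540 to 559 FPKM in 231-BR and 642 to 701 FPKM in MDA-MB-231 cells. Of 3 markers of the mesenchymal state, the filament gene VIM averaged 2553 and 2306 FPKM in 231-BR and MDA-MB-231 cells. FN1 averaged 20.3 and 7.84 FPKM, whereas the cadherin CDH2 averaged 0.11 and 0.117 FPKM. The epithelial cadherin CDH1 averaged 0.00667 and 0.0133 FPKM. Of 6 fibroblast markers, 0 reached a mean of 1 FPKM, and their summed level was 0.79 to 0.85 FPKM in 231-BR against 0.95 to 1.03 FPKM in MDA-MB-231 cells. The keratins among the markers differed, with KRT19 at 90.9 and 2.9 FPKM and KRT7 at 0.713 and 77.0 FPKM in 231-BR and MDA-MB-231 cells. Of the hormone and HER2 receptor genes, ESR1 averaged 0.927 and 0.79 FPKM, PGR 0.06 and 0.0267 FPKM and ERBB2 9.88 and 4.95 FPKM. Receptor protein was not measured. Of 3 leukocyte markers, PTPRC averaged 0.0233 and 0 FPKM and CD3E 0.01 and 0 FPKM, whereas CD68 averaged 82.9 and 63.5 FPKM. Of 4 markers of glia and neurons, GFAP averaged 0.0433 and 0.00667 FPKM, AQP4 0.00667 and 0 FPKM and RBFOX3 0.127 and 0.01 FPKM, whereas MBP averaged 21.0 and 13.6 FPKM. The part of these markers in the results was not tested. The summed level of 3 endothelial markers was 0.41 to 0.50 FPKM in 231-BR and 0.20 to 0.22 FPKM in MDA-MB-231 cells. The libraries of a line resembled each other, with a lowest correlation of log2 values of 0.997 across genes, which are not independent replicates. Summed FPKM was 465020 to 472007 in 231-BR and 486937 to 496420 in MDA-MB-231 cells. The unit FPKM counts fragments relative to the length of the transcript and to the number of mapped reads, so levels of different genes can be set side by side, but the depth of each library is unknown. A lower level in a bulk library can come from fewer cells with the transcript or from less transcript per cell, which these data cannot tell apart.

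TGF-beta is secreted as an inactive complex, in which the mature dimer stays wrapped in its own propeptide and is tethered by a latent TGF-beta binding protein to the extracellular matrix. Integrins and proteases release it. The free ligand binds the type II receptor TGFBR2, which recruits and phosphorylates the type I receptor TGFBR1, while TGFBR3 (betaglycan) presents the ligand and is needed most for TGF-beta 2. The type I receptor then phosphorylates SMAD2 and SMAD3, which enter the nucleus with SMAD4. In breast cancer the pathway is known for restraining growth of epithelium early and for driving invasion and matrix remodelling in advanced tumours.

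The largest difference was in TGFBI, which averaged 0.987 ± 0.134 FPKM in 231-BR and 94.6 ± 1.11 FPKM in MDA-MB-231 cells (mean ± SD, n = 3 libraries here and throughout). LTBP2 and LTBP3 were also lower in 231-BR, by 16.8 and 3.6 times. TGFB2 was 2.18 times higher in 231-BR, TGFBR1 and TGFBR3 were 1.42 and 1.4 times higher, and TGFBR2 was 1.14 times lower. The remaining genes, TGFB1, TGFB3 and LTBP1, did not pass the test.

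Fold changes below are log2 fold changes of FPKM + 0.1, 231-BR against MDA-MB-231 cells, from limma's moderated test fitted to the 13465 genes that averaged 0.1 FPKM or more, with Benjamini-Hochberg adjusted p-values called at under 0.05. All 10 genes were tested. Of these, 3 were higher in 231-BR, 4 were lower and 3 were not called. Calls were frequent in the whole table: 77.3% of all genes tested were called, 44.4% higher and 32.9% lower. So 7 calls among 10 genes do not set these genes apart, and what follows turns on the size of each difference. The 3 libraries of one line did not overlap those of the other for 7 of the 10 genes, against 78.4% of all genes tested. With the study's criteria added, read as a log2 fold change above 1 in size and a mean of at least 1 FPKM in both lines, 1 gene (TGFB2) was left, against 6.45% of all genes tested. LTBP2, LTBP3 and TGFBI missed these criteria because their mean in 231-BR was under 1 FPKM. With the level required in either line, 4 of the 10 genes met them, against 11.0% of all genes tested. The median log2 fold change was -0.04 over the 10 genes and 0.08 over all genes tested.

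**Figure D1:**
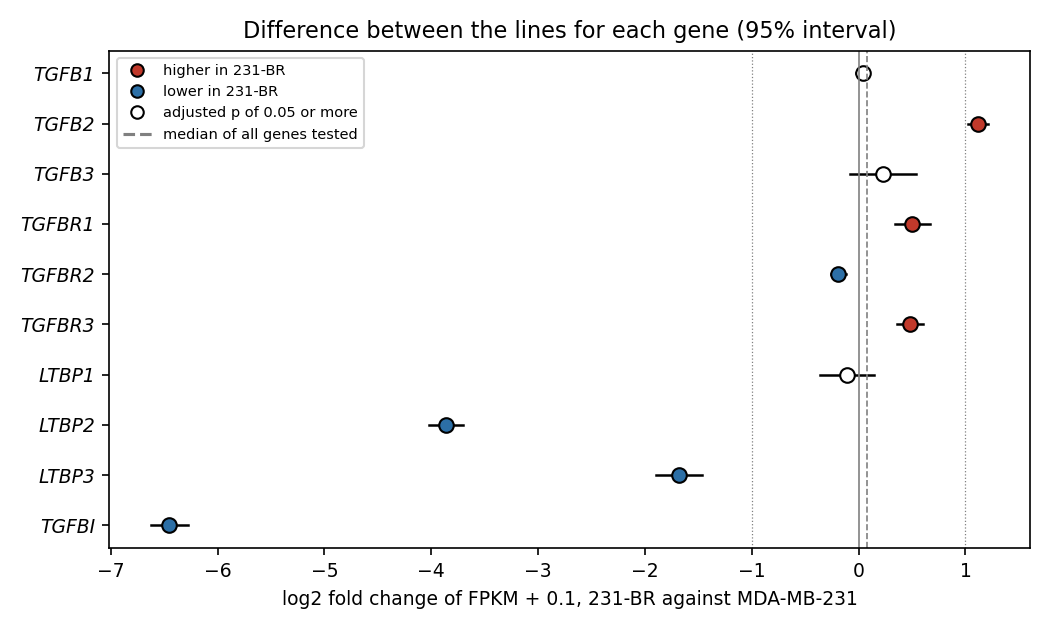
Log2 fold change of FPKM + 0.1 (231-BR against MDA-MB-231) for each gene, with its 95% confidence interval as a line, dotted lines at -1 and 1 and the median of all genes tested (0.08) as a dashed line. TGFBI (-6.45), LTBP2 (-3.86) and LTBP3 (-1.68) lie furthest to the left, and TGFB2 (1.12) is the only gene to the right of 1.

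The sequences just upstream of TGFBI, LTBP2 and TGFB2 are shown so that the regions where their transcription starts can be compared. They are taken from RefSeq on GRCh38.p14, on the strand of the gene, and end at the RefSeq start or at the start annotated in GENCODE release 29, whichever lies further upstream. LTBP3 (log2 fold change -1.68) is not printed, since its RefSeq windows lie wholly downstream of the GENCODE start. Capitals mark the GC box GGGCGG, the SMAD binding element CAGAC, the TATA box TATAAA and the half-site TGACG of the cyclic AMP response element, each on either strand. The AP-1 element TGANTCA was searched as well. The stretches cover 157 bases for TGFBI (chr5:136028738-136028894, plus strand), 109 bases for LTBP2 (chr14:74612379-74612487, minus strand) and 250 bases for TGFB2 (chr1:218345086-218345335, plus strand).
TGFBI: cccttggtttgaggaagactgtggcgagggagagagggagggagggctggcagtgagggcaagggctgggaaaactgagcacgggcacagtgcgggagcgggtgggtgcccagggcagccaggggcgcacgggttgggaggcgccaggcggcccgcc
LTBP2: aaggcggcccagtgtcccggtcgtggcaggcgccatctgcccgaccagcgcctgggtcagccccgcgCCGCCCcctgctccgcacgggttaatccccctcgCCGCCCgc
TGFB2: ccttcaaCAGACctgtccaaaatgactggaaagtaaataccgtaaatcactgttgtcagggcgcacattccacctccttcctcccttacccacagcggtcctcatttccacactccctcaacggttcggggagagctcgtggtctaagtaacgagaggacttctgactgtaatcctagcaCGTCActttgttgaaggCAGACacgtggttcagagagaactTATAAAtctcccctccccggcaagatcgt

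In the 250 bases before the RefSeq start, TGFBI had 3 GC boxes, at positions -98, -66 and -16, of which the first runs over the end of the stretch printed and the others lie beyond it, so that none is capitalised, and its window was 72.8% G and C. LTBP2 had 3 GC boxes, of which 2 are in the stretch printed, and its window was 68.8% G and C. The TGFB2 window was different in composition, with 50.4% G and C and 0 GC boxes. It had 1 TATA box at -29, 1 half-site at -70 and SMAD elements at -243 and -53. GC boxes were not limited to genes that fell. The window of TGFB1, which was not called, had 6 and was 76.8% G and C. That of TGFBR3, which rose, had 2 and was 73.6% G and C. Those of TGFB3 and LTBP1, which were not called, had 0. How such matches relate to the differences between the lines was not tested. Of 35116 such windows of 27305 genes, 42.6% held a GC box, 38.0% a SMAD element, 21.2% the half-site, 10.7% the TATA box and 6.57% the AP-1 element. A match is only a run of letters, not a site shown to be bound, and the absence of one says only that these letters are not in the window. No binding or chromatin was measured.

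Among the ligands, TGFB1, the isoform most broadly made by tumour and immune cells, had the highest level in every library of both lines. Its 3 values were 38.94, 39.26 and 39.99 FPKM in 231-BR and 37.71, 37.93 and 39.40 FPKM in MDA-MB-231 cells. The lines overlapped, and the difference did not pass the test, with a log2 fold change of 0.04 (95% confidence interval -0.02 to 0.10, adjusted p = 0.23 by limma). Its sign depends on the scaling and was -0.04 with median-of-ratios scaling. TGFB1 lies at chr19:41301587-41353911 on the minus strand of GRCh38.p12, the build of all gene positions given here, and an exon of it overlaps HNRNPUL1 on the opposite strand.

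TGFB2, the isoform that depends most on betaglycan for binding, was the ligand that rose. It was measured at 16.10, 15.68 and 16.02 FPKM in 231-BR and at 7.64, 7.12 and 7.12 FPKM in MDA-MB-231 cells. Every 231-BR library was therefore at least 2.05 times every MDA-MB-231 library. The log2 fold change was 1.12 (SE 0.042, adjusted p = 5.9e-09 by limma), and it ranked 1243 from the highest among the genes tested. The gene is at chr1:218346235-218444619 on the plus strand, and the 40 nearest genes with a mean of at least 1 FPKM, 20 on either side, had a median log2 fold change of 0.43. An exon of TGFB2 overlaps the noncoding gene TGFB2-OT1 on the same strand, whose part in the level was not tested.

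TGFB3, the isoform best known from palate and skin development, was low, at under 1 FPKM in every library. It was listed at 0.62, 0.48 and 0.64 FPKM in 231-BR and at 0.48, 0.50 and 0.45 FPKM in MDA-MB-231 cells. The lines overlapped at the low 231-BR replicate 2, and the log2 fold change of 0.23 (95% confidence interval -0.08 to 0.54) had an adjusted p of 0.15. Without 231-BR replicate 2 it was 0.34 with an adjusted p of 0.049, so that 1 library decides the call, and with quantile normalization it was -0.21. TGFB3 lies at chr14:75958099-75982991 on the minus strand, and an exon of it overlaps the noncoding gene TGFB3-AS1 on the opposite strand.

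The balance of the ligands differed with TGFB2. TGFB1 made up 70.5% ± 0.45 of the summed FPKM of the 3 ligands in 231-BR and 83.1% ± 0.81 in MDA-MB-231 cells. TGFB2 made up 28.5% ± 0.37 and 15.8% ± 0.77. TGFB3 was at 1.04% ± 0.15 and 1.03% ± 0.071. The ratio of TGFB1 to TGFB2 was thus 2.47 ± 0.047 in 231-BR and 5.27 ± 0.30 in MDA-MB-231 cells, and the summed level of the 3 ligands was 55.9 ± 0.652 and 46.1 ± 0.752 FPKM. The order of the ligands, TGFB1 over TGFB2 over TGFB3, was the same in all 6 libraries. For shares and sums no test was made beyond that of each gene, since with 3 libraries against 3 the smallest two-sided p of an exact permutation test is 0.1.

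**Figure D2:**
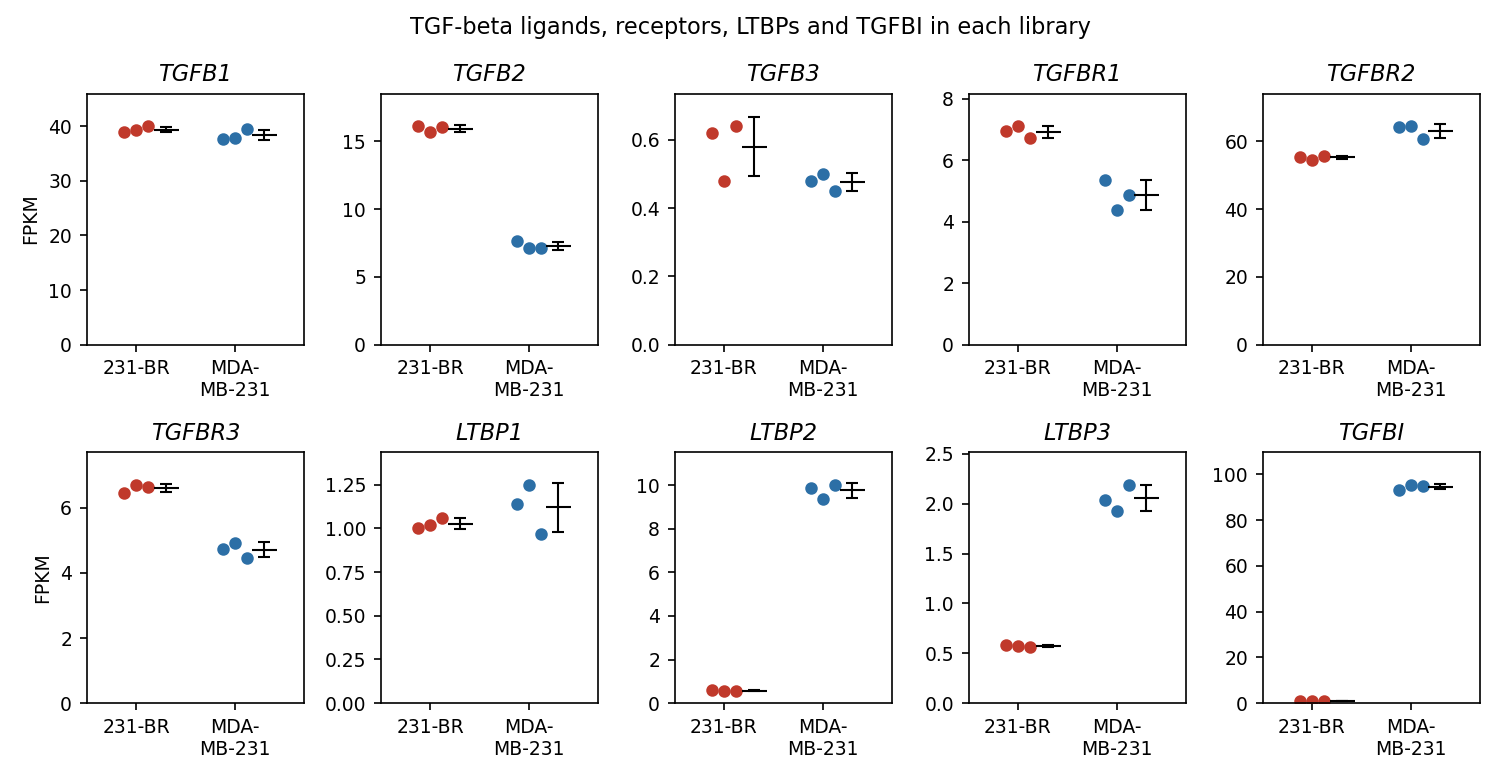
FPKM of each gene in the 3 libraries of 231-BR (red) and the 3 libraries of MDA-MB-231 (blue), on linear axes that start at 0, with the mean and SD as a bar beside the points. The lines overlap for TGFB1, TGFB3 and LTBP1 and are apart for the other 7 genes, with TGFBI near 1 FPKM in 231-BR and above 93 FPKM in MDA-MB-231.

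Of the receptor genes, the type II receptor TGFBR2 had the highest level and was the one that fell. It stood at 55.40, 54.55 and 55.65 FPKM in 231-BR and at 64.17, 64.40 and 60.54 FPKM in MDA-MB-231 cells. The lines did not overlap, but the difference was small, with a log2 fold change of -0.19 (SE 0.029, adjusted p = 0.00018 by limma). Its position is chr3:30606502-30694142 on the plus strand, where the 40 neighbouring genes had a median of 0.27, opposite in sign.

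The type I receptor TGFBR1, the kinase that passes the signal to SMAD2 and SMAD3, rose. It was found at 6.93, 7.10 and 6.72 FPKM in 231-BR and at 5.36, 4.37 and 4.85 FPKM in MDA-MB-231 cells. All 231-BR libraries lay above all MDA-MB-231 libraries, among which the spread was wider. This was a log2 fold change of 0.50 (SE 0.072, adjusted p = 0.0001 by limma). TGFBR1 is at chr9:99104038-99154192 on the plus strand.

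The co-receptor TGFBR3 rose by a similar amount. Its level was 6.47, 6.71 and 6.63 FPKM in 231-BR and 4.75, 4.93 and 4.47 FPKM in MDA-MB-231 cells, again with no overlap. Its log2 fold change was 0.48 (SE 0.054, adjusted p = 1.8e-05 by limma). TGFBR3 lies at chr1:91680343-91906335 on the minus strand, on the same chromosome as TGFB2 but on its short arm, and its 40 neighbours had a median of -0.06.

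With the type I receptor and betaglycan higher and the type II receptor slightly lower, the proportions among the receptors differed. TGFBR2 made up 80.3% ± 0.46 of the summed FPKM of the 3 receptors in 231-BR and 86.8% ± 0.51 in MDA-MB-231 cells. The shares of TGFBR1 were 10.1% ± 0.32 and 6.7% ± 0.68, and those of TGFBR3 were 9.61% ± 0.21 and 6.49% ± 0.17. There were 7.99 ± 0.30 units of TGFBR2 for each unit of TGFBR1 in 231-BR and 13.1 ± 1.5 in MDA-MB-231 cells. The summed level of the receptors was 68.7 ± 0.327 and 72.6 ± 2.4 FPKM. TGFBR1 and TGFBR3 were close to each other in both lines, and which of them was higher is not separable from the spread between libraries in MDA-MB-231 cells.

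The latent TGF-beta binding proteins are large relatives of the fibrillins. LTBP1 and LTBP3 bind the latent ligand covalently, whereas LTBP2 does not bind it and is known as a component of elastic fibres and microfibrils. LTBP2 showed the second largest difference of the 10 genes. Its values were 0.61, 0.57 and 0.56 FPKM in 231-BR and 9.89, 9.37 and 10.02 FPKM in MDA-MB-231 cells. Each MDA-MB-231 library was at least 15.4 times each 231-BR library. This came to a log2 fold change of -3.86 (SE 0.071, adjusted p = 4.5e-11 by limma), the 35th lowest of the 11418 genes with a mean of at least 1 FPKM in either line. LTBP2 lies at chr14:74498170-74612378 on the minus strand, close to TGFB3 on the same chromosome, and the 40 neighbouring genes had a median of 0.27. A long noncoding gene overlaps an exon of it on the opposite strand, and nothing in the sources used here says that strand was kept in the counting.

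LTBP3, which carries latent ligand in bone and in vessels, also fell. It was at 0.58, 0.57 and 0.56 FPKM in 231-BR and at 2.04, 1.93 and 2.19 FPKM in MDA-MB-231 cells. The lines were far apart compared with the spread within each. The log2 fold change was -1.68 (SE 0.095, adjusted p = 9.3e-08 by limma), and it was -0.96 with a pseudocount of 1, which weighs more on such low levels. The gene is at chr11:65538805-65558930 on the minus strand.

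LTBP1, the best studied carrier of latent TGF-beta 1, did not pass the test. It was at 1.00, 1.02 and 1.06 FPKM in 231-BR and at 1.14, 1.25 and 0.97 FPKM in MDA-MB-231 cells, so that the lines overlapped. The log2 fold change was -0.11 (95% confidence interval -0.36 to 0.14, adjusted p = 0.39 by limma). With quantile normalization it was -0.53 with an adjusted p of 0.0015, the only alternative in which it was called. LTBP1 lies at chr2:32946972-33399509 on the plus strand, and an exon of it overlaps an antisense gene on the opposite strand.

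LTBP4, which is in the list of latency partners and was singled out after its values were seen, completes the family. It averaged 15.2 ± 0.38 FPKM in 231-BR and 12.5 ± 0.665 FPKM in MDA-MB-231 cells and rose by a log2 fold change of 0.28 (adjusted p = 0.00023 by limma). Of the summed FPKM of the 4 binding proteins, it made up 87.5% ± 0.32 in 231-BR and 49.2% ± 1.3 in MDA-MB-231 cells. LTBP2 made up 3.33% ± 0.22 and 38.3% ± 1.1, and LTBP3 made up 3.27% ± 0.13 and 8.06% ± 0.3. LTBP1 was at 5.89% ± 0.075 and 4.41% ± 0.68. The summed level of the family was 17.4 ± 0.372 and 25.5 ± 0.826 FPKM.

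**Figure D3:**
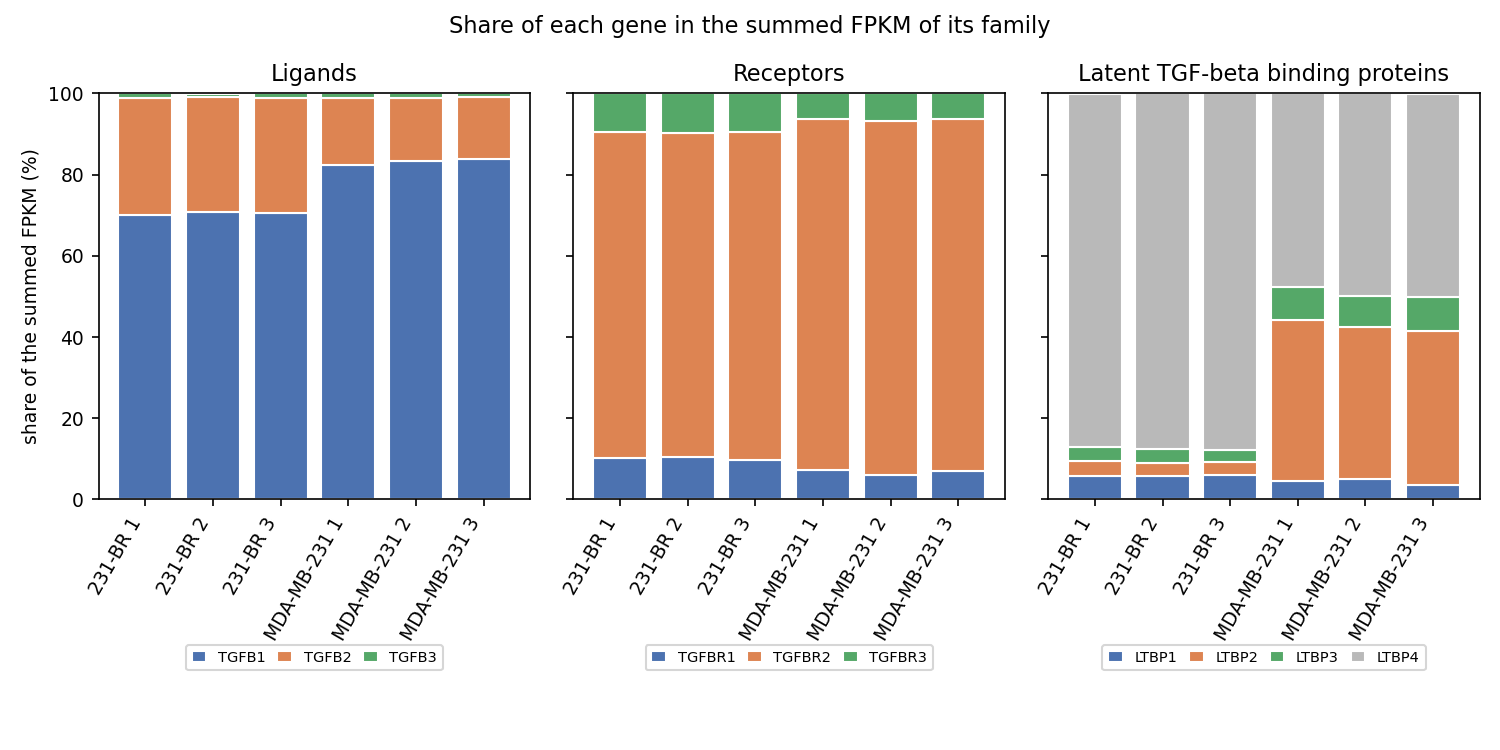
Share (%) of each gene in the summed FPKM of the ligands, the receptors and the latent TGF-beta binding proteins, 1 stacked bar per library, with LTBP4 added to the 10 genes to complete its family. TGFB2 takes a larger share of the ligands in all 3 libraries of 231-BR, and LTBP2 takes 3.33% of its family in 231-BR against 38.3% in MDA-MB-231.

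TGFBI encodes a secreted matrix protein that binds collagens and integrins, and it is induced by TGF-beta in many cell types. It was detected at 0.89, 0.93 and 1.14 FPKM in 231-BR and at 93.34, 95.44 and 95.01 FPKM in MDA-MB-231 cells. Each MDA-MB-231 library was 81.9 to 107 times each 231-BR library, and the ratio of the means was 95.9. The log2 fold change was -6.45 (SE 0.075, 95% confidence interval -6.62 to -6.28, adjusted p = 4.1e-12 by limma). It was the 4th lowest of all 13465 genes tested. In MDA-MB-231 cells TGFBI had the highest level of the 10 genes, above TGFBR2, and in 231-BR its libraries overlapped those of LTBP1. Of the 6 fibroblast markers, COL1A1 averaged 0.517 and 0.93 FPKM in 231-BR and MDA-MB-231 cells, PDGFRA 0.25 and 0 FPKM, PDGFRB 0.0367 and 0.05 FPKM, COL1A2 0 and 0.00667 FPKM, LUM 0.00667 and 0 FPKM, and THY1 0.00333 FPKM in both. Their part in the difference of TGFBI was not tested. TGFBI lies at chr5:136028895-136063818 on the plus strand, and the 40 neighbouring genes had a median log2 fold change of -0.21.

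The genes with profiles most like those of TGFBI and TGFB2 were sought by the Euclidean distance between centred log2 profiles over the 6 libraries, among the 11418 genes with a mean of at least 1 FPKM in either line. For TGFBI these were the keratin gene KRT7 (distance 0.304), the receptor gene GPR176 (0.412) and KISS1, the precursor of kisspeptin (0.50). KRT7 averaged 0.713 ± 0.11 FPKM in 231-BR and 77.0 ± 7.18 FPKM in MDA-MB-231 cells, KISS1 averaged 0.353 and 43.0 FPKM, and GPR176 was listed at 0 in all 231-BR libraries and averaged 7.17 FPKM in MDA-MB-231 cells. For TGFB2 they were ZMYM3 (distance 0.0277), the chromatin remodeller gene ATRX (0.0479) and the sodium pump subunit gene ATP1B1 (0.0537). With libraries that fall into 2 lines, such likeness reflects mainly a similar difference between the lines.

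Other genes of the pathway were taken from 6 lists with 122 genes, of which 119 were in the table and 102 were tested. Of the 122, 9 were also picked by the study from these same libraries (among them ITGAV, ITGB1, FBN1, FN1, CDKN1A, SNAI1, SNAI2 and IGFBP3), so their directions are not independent evidence. The genes named are among those that met the study's criteria and the one with the highest level in each list. Genes that met them only with the level required in either line, a few SMAD genes and the other integrin beta chains were added after their values were seen.

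The counts of each list stand beside a background of 44.4% higher and 32.9% lower over all genes tested, with a median of 0.08, and only counts and medians are given, with no test of a list.

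Among partners of latency and activation, 6 of 16 genes tested rose, 5 fell and 5 were not called, with a median log2 fold change of -0.09. These are 37.5% higher and 31.2% lower. FURIN, the protease that cuts the propeptide from the ligand, fell from 22.6 FPKM in MDA-MB-231 to 7.21 FPKM in 231-BR cells (log2 fold change -1.63, adjusted p = 1.6e-10 by limma). ITGAV, the alpha chain of the integrins that release latent TGF-beta, fell from 24.8 to 10.4 FPKM (-1.25, adjusted p = 8.5e-09), and the beta chain ITGB1, the highest of the list, fell from 479 to 246 FPKM (-0.96, adjusted p = 6.8e-10). In contrast, the matrix genes FBN1 and FN1, onto which latent complexes are deposited, rose by log2 fold changes of 1.33 and 1.36. PCSK5, a proprotein convertase related to furin, rose from 0.583 to 2.63 FPKM. The other integrin beta chains of the list did not all move the same way. ITGB8 was low but rose from 0.04 to 0.253 FPKM (1.34, adjusted p = 0.00011 by limma). ITGB3 and ITGB5 fell, with log2 fold changes of -0.58 and -0.11. ITGB6 averaged 0.00333 FPKM in 231-BR and 0.0233 FPKM in MDA-MB-231 cells and was not tested. The number of genes that fell was 8 with median-of-ratios scaling and 8 with quantile normalization.

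Among accessory and alternative receptors, 3 of 10 genes tested rose, 3 fell and 4 were not called, with a median of -0.08 and none past the study's criteria. Endoglin (ENG), a co-receptor related to betaglycan and the highest of the list, fell from 74.0 to 48.4 FPKM (log2 fold change -0.61, adjusted p = 4.4e-08 by limma). BMPR1B, a type I receptor for bone morphogenetic proteins, rose from 0.353 to 1.47 FPKM (1.80). The number that fell was 6 with median-of-ratios scaling and 7 with quantile normalization.

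Of the SMADs and their partners, 6 of 13 rose, 6 fell and 1 was not called, with a median of 0.08. SMAD4, the shared partner of the receptor-activated SMADs, rose from 3.08 to 6.39 FPKM (log2 fold change 1.03, adjusted p = 5.1e-08 by limma) and met the study's criteria. The receptor-activated SMADs of the TGF-beta branch moved in opposite directions: SMAD2 rose from 3.76 to 7.16 FPKM (0.91) and SMAD3 fell from 30.9 to 17.4 FPKM (-0.83). HGS, the highest of the list, was at 53.9 and 56.9 FPKM (0.08, adjusted p = 0.064). The number that rose was 3 with median-of-ratios scaling.

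Of the inhibitors and feedback genes, 6 of 16 rose, 5 fell and 5 were not called, with a median of -0.01. The largest differences were in PMEPA1 and SMAD7, which the pathway induces and which in turn dampen it. PMEPA1 averaged 0.07 ± 0.03 FPKM in 231-BR and 3.95 ± 0.316 FPKM in MDA-MB-231 cells (log2 fold change -4.59, adjusted p = 1.8e-09 by limma). SMAD7 averaged 0.98 ± 0.0265 and 3.13 ± 0.424 FPKM (-1.57, adjusted p = 3.2e-07). SMAD6, the inhibitor of the bone morphogenetic protein branch, rose from 0.587 to 1.35 FPKM (1.10, adjusted p = 6.2e-05). FKBP1A, the highest of the list, was at 629 FPKM in both lines and was not called, and its direction depends on the scaling. The number that fell was 8 with quantile normalization.

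Of the genes of non-SMAD signalling, 4 of 13 rose, 5 fell and 4 were not called, with a median of 0.02. The adaptor DAB2 rose from 7.14 to 19.3 FPKM (log2 fold change 1.43), and the polarity gene PARD6A rose from 1.43 to 4.14 FPKM (1.48). RHOA, the highest of the list, was at 454 FPKM in MDA-MB-231 and 439 FPKM in 231-BR cells (-0.05, adjusted p = 0.036 by limma) and was not called with quantile normalization. The number that fell was 3 without 231-BR replicate 2 and 3 without MDA-MB-231 replicate 1.

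Of 34 target genes tested, 20 fell, 13 rose and 1 was not called, with a median log2 fold change of -0.73. That is 58.8% lower and 38.2% higher, against 32.9% and 44.4% of all genes tested. Of the target genes, those the study picked from these libraries are included in the count. The basement membrane collagens COL4A1 and COL4A2 fell, with log2 fold changes of -1.86 and -2.31 (adjusted p = 4.2e-10 and 7.5e-12 by limma), and COL5A1 fell as well, with -1.37. The cell cycle inhibitor CDKN1A fell from 37.9 to 9.95 FPKM, the transcription factor genes SNAI1, BHLHE40 and KLF10 fell by 1.71, 2.15 and 1.21 on the log2 scale, and the cytokine IL11 fell from 30.1 to 6.22 FPKM.

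Several targets moved the other way. IGFBP3, which binds insulin-like growth factors, rose from 13.8 to 69.9 FPKM (log2 fold change 2.33), SNAI2 rose from 9.97 to 37.9 FPKM (1.92), the collagen crosslinker LOX rose from 4.15 to 13.1 FPKM (1.63), and ZEB2 rose from 1.27 to 2.70 FPKM (1.03). The matricellular gene CCN1, the highest of the list, rose from 408 to 488 FPKM (0.26, adjusted p = 1.5e-06 by limma). Among genes near 0 in one line, the collagen COL6A3 fell from 1.38 to 0.0967 FPKM and the smooth muscle actin ACTA2 rose from 0.35 to 2.35 FPKM. These targets answer to other signals as well, and which of them respond to TGF-beta in these lines was not measured. Among all 82 list genes called, 0 had an opposite call with median-of-ratios scaling or quantile normalization, and 5 and 7 were no longer called.

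**Figure D4:**
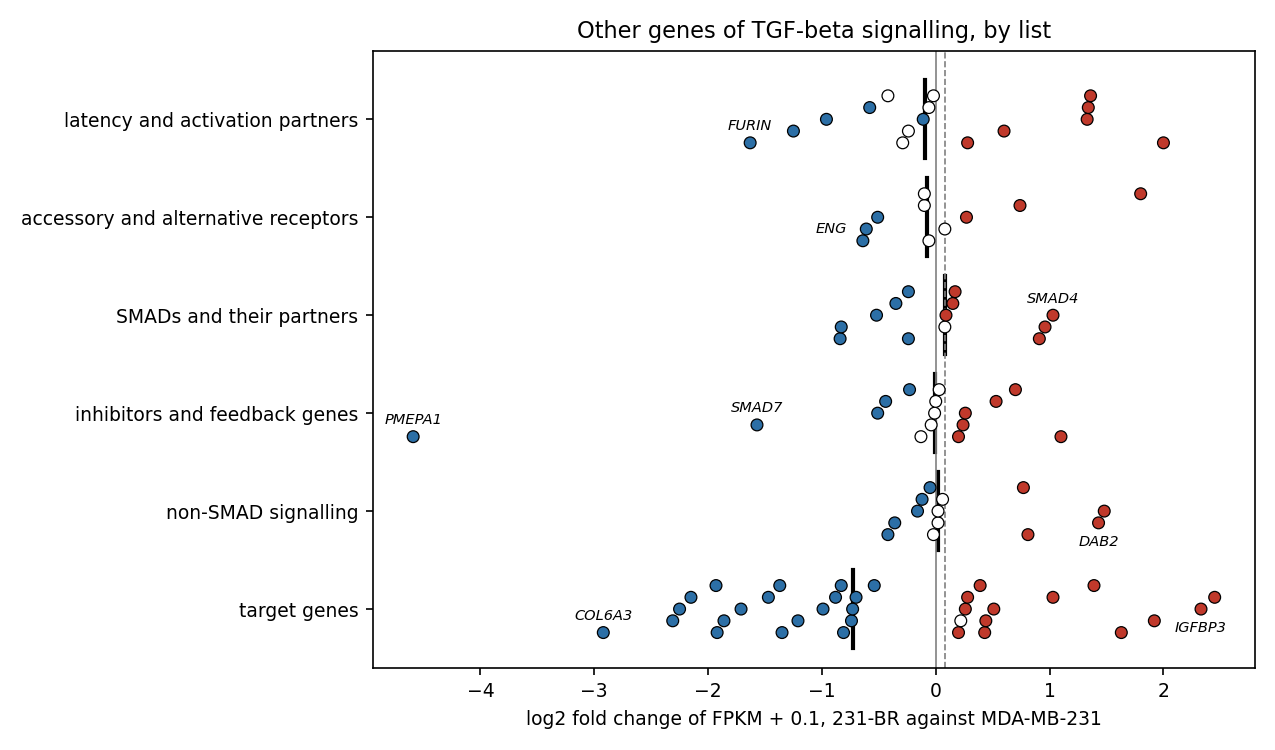
Log2 fold change of FPKM + 0.1 (231-BR against MDA-MB-231) of the 102 other genes tested, by list, with genes that rose in red, genes that fell in blue and genes not called in white (vertical offsets within a list carry no meaning). The thick bar is the median of each list and the dashed line the median of all genes tested (0.08), and the median of the target genes lies at -0.73.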

How the data were processed

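Poly(A) RNA of 6 libraries, 3 of 231-BR and 3 of MDA-MB-231 cells, was sequenced on a BGISEQ-500 instrument. The authors filtered the reads with SOAPnuke, aligned them to the genome with HISAT2 (2.0.4) and to a gene set with Bowtie2 (2.2.5), and deposited FPKM per gene with no further normalization. The submitters' processing notes name these versions and GRCh38.p12. The program that computed the FPKM is not given in the sources used here. The authors tested read counts with DESeq2, whereas counts were not used here, so the depth is unknown and limits the precision to an unknown extent. Columns of no sample in this series numbered 0.

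In limma 3.58.1 (R 4.3.3), a model with a term for the cell line was fitted to log2(FPKM + 0.1) (lmFit, eBayes with trend, two-sided) for 13465 genes with a mean of at least 0.1 FPKM, with Benjamini-Hochberg adjustment over all of them. The fit was tested on simulated data of 13364 genes, in which 100 of 100 log2 differences of 1 and 88 of 100 of 0.5 were recovered with 10 false calls. The differences were placed in 200 genes, none with a level as low as that of TGFB3. Normal noise with each gene's own spread was used. In the data 77.3% of genes tested were called, so these figures do not carry over to them or to low genes. Python 3.11.15 with pandas 2.3.3 made the tables, and matplotlib 3.10.9 the plots.

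The 10 genes and the lists were chosen with earlier results of these data known. Named beside them are the list genes that met the study's criteria (absolute log2 fold change over 1, mean of at least 1 FPKM in both lines), the highest gene of each list, the 3 genes most like the 2 genes with the largest and smallest fold change, and the cell type markers. Gene positions and exon overlaps are from GENCODE release 29, in which 16525 of 17039 genes were placed, and upstream sequences from RefSeq on GRCh38.p14, in which all 10 genes were matched. The motifs were chosen after the sequences were seen. The numbers of the replicates gave no pairing. The alternatives were pseudocounts of 1 and 0.01, no filter and a filter at a mean of 1 FPKM, quantile normalization, median-of-ratios scaling, a replicate block, eBayes without the trend, each library left out in turn, FPKM + 0.1 before the shares, a fold criterion of 1.5 and the level in either line. Some genes of the lists were not analysed or are not reported here.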

Additional observations from a re-analysis of the deposited data

How the results depend on the processing

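Over the alternatives, 379 values were rated as unchanged, 16 as moved (up or down), 2 as reversed and 2 as newly called. Fold changes were rated by direction and side of the threshold, and shares by the spread between libraries. Counts have neither, and a count rated as unchanged can still differ. Among all genes tested, 4433 were lower as deposited and 5749 with quantile normalization, which was rated as unchanged. The calls of TGFB2, TGFBR1, TGFBR2, TGFBR3, LTBP2, LTBP3 and TGFBI kept direction and side under each alternative run. Where values moved, the cause was not tested. With median-of-ratios scaling TGFB1 was -0.04 (adjusted p = 0.19 by limma), and 8 latency partners and 6 accessory receptors fell and 3 SMAD genes rose. With quantile normalization TGFB3 was -0.21 (adjusted p = 0.19) and LTBP1 was -0.53 (adjusted p = 0.0015), and 8 latency partners, 7 accessory receptors and 8 inhibitors fell. The median of all genes was 0.08 as deposited, -0.00 with median-of-ratios scaling and -0.06 with quantile normalization, a shift of -0.14, and 57.4%, 50.4% and 45.6% of all calls were higher. Leaving out 1 library at a time, TGFB3 ranged from 0.17 to 0.34 (highest without 231-BR replicate 2, adjusted p = 0.049) and non-SMAD genes that fell ranged from 3 to 5. With 0.1 FPKM added before shares were taken, LTBP1, LTBP2, LTBP3 and LTBP4 in 231-BR were at 6.32%, 3.82%, 3.76% and 86.1%, and TGFB3 was at 1.21% in 231-BR and 1.24% in MDA-MB-231 cells. Of the 10 genes, 0 met the criteria at an absolute log2 fold change over 1.5 and 4 with the level in either line. TGFB3 has no value with the filter at a mean of 1 FPKM, since its own mean is lower. A replicate block gave the same calls for all 10 genes, with TGFBI at -6.45 (adjusted p = 9.1e-11) and TGFB1 at 0.04 (adjusted p = 0.18), and 6015 genes higher and 4487 lower in all. The deviations of same-numbered libraries correlated by 0.0873, -0.0396 and -0.106 over 11124 genes, so the numbers do not show a pairing. How many reads lie behind the low FPKM of LTBP2, LTBP3 and TGFBI in 231-BR and of TGFB3 and LTBP1 in both lines is unknown.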
